A study of Mus musculus with 12 samples.

Results

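Interferon response and antigen presentation genes were followed in H2K myogenic progenitors of the mouse, emerin-null and wildtype, before and during differentiation. The group holds 54 genes, chosen by name, of 14910 gene names with a usable entry at 1 stage or more, and it was sorted by role into 10 groups: interferon receptors, transcription factors, MHC transactivators, class I presentation, class II presentation, interferon-inducible GTPases, RNA sensors, antiviral effectors, the ISG15 system, and PARP9, PARP14 and DTX3L. Emerin is an inner nuclear membrane protein whose gene is mutated in X-linked Emery-Dreifuss muscular dystrophy. H2K progenitors are mouse myoblasts that carry a temperature-sensitive T antigen under an interferon-inducible H-2K promoter, so interferon-γ keeps them dividing.

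RNA sequencing gave 12 samples, 1 of each genotype at each of 6 stages. Emerin-null and wildtype cells were each sampled while proliferating, at day 0 and at days 1, 2, 3 and 4 of differentiation. In both genotypes the proliferating and day 0 cells were in rich serum medium with γ-interferon at 20 units/ml, and the cells of days 1 to 4 were in differentiation medium with horse serum and no added interferon. Each genotype is represented by 1 cell line, and RNA from 3 culture plates stands behind each single deposited value. Interferon-γ, serum, carbon dioxide and differentiation changed together after day 0 in both lines, so they cannot be told apart. The study's methods give a higher temperature after day 0 as well, where the sample labels give the same temperature throughout, so a change of temperature cannot be told apart from these either. In RNA from whole cultures, fewer cells of a type and less RNA per cell cannot be told apart either.

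Interferon-γ binds the IFNGR1 and IFNGR2 receptor, and its signal reaches GAS elements in DNA and induces IRF1 and CIITA. Type I interferons bind IFNAR1 and IFNAR2 and activate a complex with STAT2 and IRF9 that binds interferon-stimulated response elements (ISRE). The induced genes include the antiviral effectors, and the genes that load peptides onto MHC class I molecules at the cell surface. Myoblasts express MHC class I weakly at rest, and interferon-γ raises class I and class II expression in them.

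Levels were deposited as FPKM, fragments scaled to transcript length and to the number of mapped fragments, which allows levels to be compared between genes. Where a gene had several usable entries at a stage, the one with the largest sum over both genotypes was taken. Of the 54 genes, 43 had a usable entry at all 6 stages and a mean of at least 1 FPKM, and they entered the tests with 10499 genes in all. The 11 others lacked an entry at 1 stage or more (Irf3, Irf5, Irf7, H2-D1, Gbp3, Gbp7, Igtp, Ifit3, Ifi44, Mx1 and Trim21). At their locus 29 of the 43 stood alone at all stages, and 14 shared an entry with a neighbouring gene at 1 stage or more. Predicted genes, genes with RIKEN clone names and microRNAs were not counted as neighbours, and 6 of the 29 (Irf1, Irf2, Nlrc5, Cd74, Iigp1 and Ifit1) shared an entry with such a gene, which leaves 23 with no other name at all. Emd, the targeted gene, had 0 to 3.10 FPKM in emerin-null cells, against 13.6 to 62.1 FPKM in wildtype cells. Values below are in the order proliferating, day 0, day 1, day 2, day 3 and day 4.

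The first comparison concerned how the levels of these genes differed between the stages with and without interferon-γ in each line. B2m, the light chain of class I molecules, was the most abundant of the 43 by its median over the stages, at 1505 FPKM in emerin-null cells and 1678 FPKM in wildtype cells. H2-K1, a classical class I heavy chain, was next at 625 FPKM in emerin-null cells and 997 FPKM in wildtype cells. Ciita, the transactivator of class II genes, was the lowest at 1.26 FPKM in emerin-null cells and 1.84 FPKM in wildtype cells. The 2 receptors of interferon-γ lay between these, with 6.89 FPKM in emerin-null cells and 7.32 FPKM in wildtype cells for Ifngr1 and 15.5 FPKM in emerin-null cells and 16.9 FPKM in wildtype cells for Ifngr2. In both genotypes B2m and H2-K1 held the same 2 places at the top, and their ranges did not overlap those of Ifngr1, Ifngr2 or Ciita in any of the 12 samples.

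After day 0 many of these genes were at lower levels in both lines. The mean log2(FPKM + 0.1) of days 1 to 4 less that of the proliferating and day 0 cells had a median over the 43 genes of -1.04 in emerin-null cells and -0.93 in wildtype cells. Over all 10499 genes the medians were -0.17 in emerin-null cells and -0.20 in wildtype cells. In emerin-null cells 22 of the 43 were lower by 2-fold or more (19.7% of all genes) and 5 were higher by 2-fold or more (13.1% of all genes). In wildtype cells 20 were lower (21.8% of all genes) and 6 were higher (12.2% of all genes). These counts include Iigp1, whose entries differ so much between stages that its levels cannot be compared across them. Without it 21 were lower in emerin-null cells and 19 in wildtype cells. Entries of other counted genes changed too. That of H2-K1 spanned 26093 bases while proliferating and 1125 bases at day 4, and that of Gbp2 36927 and 17370 bases. Samhd1 had entries of very different level, and Isg20 shared its entry with Aen at all stages but day 0. The entry of Mx2 while proliferating and that of Irgm1 at day 4 were shorter than at their other stages. The counts were not corrected for these. There is no test behind these counts, since each value is a single sample, and the tables of the stages were normalized separately. Scaling the 12 samples to a common median ratio moved the median of all genes by over 0.1, to 0.01 in both lines, and the medians of the 43 genes to -0.85 in emerin-null cells and -0.72 in wildtype cells.

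The genes at lower levels after day 0 included most of those of antigen presentation. All 4 class II genes, 4 of 5 class I genes and both MHC transactivators were lower by 2-fold or more in both lines. H2-K1 is among the class I genes counted, with the change of entry given above. Cd74, the invariant chain of class II molecules, had 81.0, 95.2, 10.6, 2.16, 0.768 and 1.02 FPKM in emerin-null cells, against 73.5, 119, 16.7, 2.58, 0.901 and 1.85 FPKM in wildtype cells. Irf1, the first transcription factor in the interferon-γ cascade, had 75.0, 113, 39.4, 20.4, 20.2 and 21.3 FPKM in emerin-null cells, against 79.1, 127, 52.5, 26.7, 39.3 and 33.1 FPKM in wildtype cells. Both lines had their highest Irf1 level at day 0 and their lowest after it. B2m differed from the other class I genes, with 1464, 1309, 1327, 1658, 1546 and 1749 FPKM in emerin-null cells, against 1608, 1383, 1496, 2383, 2076 and 1747 FPKM in wildtype cells. Its mean level at days 1 to 4 less that of the stages with interferon-γ was 0.17 in emerin-null cells and 0.35 in wildtype cells on the log2 scale. Ciita had 3.29, 3.09, 1.44, 0.369, 1.07 and 0.546 FPKM in emerin-null cells, against 3.70, 3.10, 0.962, 0.281, 2.18 and 1.51 FPKM in wildtype cells, and its entry also covered Dexi at the first 2 stages.

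Several antiviral genes were at higher levels after day 0, while Oasl2 was lower by 2-fold or more in both lines. Samhd1 was counted as lower too, but its entries were of very different level and its levels cannot be compared between stages. Ifit1, Mx2, Isg20, Isg15 and Usp18 were higher by 2-fold or more at days 1 to 4 in both lines, as was Bst2 in wildtype cells. For Mx2 this includes the change of entry given above. The Isg20 entry was shared with Aen at all stages but day 0. At day 0 Isg20 stood alone, with 0.509 FPKM in emerin-null cells and 0.714 FPKM in wildtype cells. The higher level of Isg20 after day 0 thus cannot be told apart from this change of entry. Isg15, a ubiquitin-like protein that is conjugated to targets, had 27.1, 27.6, 36.4, 81.1, 68.8 and 115 FPKM in emerin-null cells, against 24.6, 28.8, 73.8, 122, 72.0 and 84.6 FPKM in wildtype cells. Bst2, which tethers virus particles to the cell, had 70.2, 90.4, 89.2, 133, 161 and 182 FPKM in emerin-null cells, against 74.3, 95.8, 154, 198, 194 and 143 FPKM in wildtype cells. Neither interferon-β nor interferon-γ itself had a usable entry at any stage, nor did Ifna2, Ifna4 or Ifne. Of the receptors, Ifngr1 had 8.55, 9.75, 7.39, 5.90, 6.39 and 6.12 FPKM in emerin-null cells, against 9.04, 9.59, 8.51, 6.13, 5.36 and 5.19 FPKM in wildtype cells. Ifngr2 had 9.38, 10.2, 17.3, 13.8, 17.8 and 19.3 FPKM in emerin-null cells, against 9.35, 10.8, 18.1, 17.0, 16.9 and 17.0 FPKM in wildtype cells. Ifngr2 was thus above its day 0 level at days 1 to 4 in both lines, and Ifngr1 below it.

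**Figure D1:**
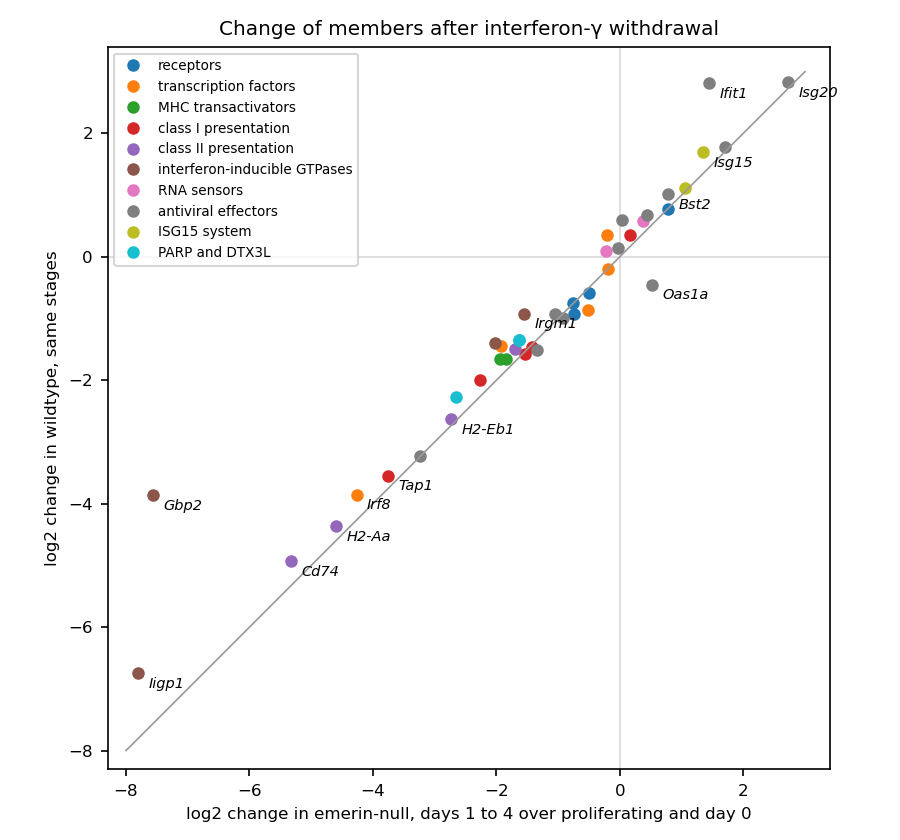
Each point is 1 of the 43 tested genes. The x axis gives the log2 change in emerin-null cells from the stages with interferon-γ (proliferating and day 0) to days 1 to 4, the y axis the same change in wildtype cells, colours mark roles, and the line marks equal change. Cd74 and H2-Aa lie far down in both lines, Ifit1 (1.44 in emerin-null cells, 2.82 in wildtype cells) lies off the line, and Gbp2, with near-zero emerin-null entries at days 3 and 4, lies off it on the other side of 0.

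The promoters of the group were read for the elements named above. RefSeq promoter windows (GRCm38.p6, 250 bases before to 50 after the transcript start) were found for 43 of the 54 genes. The core of the ISRE, GAAANNGAA on either strand, was in the window of 20 of these genes (46.5%), and in 8.56% of all 32851 promoters. The GAS letters TTCNNNGAA, which read the same way on both strands, were in 15 (34.9%), against 8.30% of all promoters. A gene of the group was counted when any of its windows held a match, and some genes had more than 1 window. The shares of all promoters count single windows, so the shares are of unlike units. Both were found in 7 genes and neither in 15, and in 1 gene, Bst2, an ISRE core and a GAS match overlapped. By role, the ISRE core was found in all 6 GTPases with a window, in both RNA sensors, in 8 of 14 antiviral effectors and in Isg15, but in 1 of 5 class I genes and in neither class II gene. These matches are a description of letters in a window, not of binding.

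The windows below are from genes that differ in when and how their levels differed between the genotypes, with the matches in capitals (ISRE core in the first 6, GAS in Irf1 and Irf8), 5′ to 3′ on the strand of the gene. They lie at chr4:156200856-156200916 on the minus strand (Isg15), chr19:34640760-34640833 on the plus strand (Ifit1), chr5:120907511-120907565 on the minus strand (Oas1a), chr10:128270257-128270305 on the plus strand (Stat2), chr11:48871416-48871470 on the minus strand (Irgm1), chr2:122147528-122147576 on the plus strand (B2m), chr11:53769904-53769952 on the plus strand (Irf1) and chr8:120736167-120736233 on the plus strand (Irf8). The last is the whole window of H2-K1 (chr17:34000298-34000597, minus strand), shown because a promoter of this gene drives the T antigen of these lines. It held no match to these letters. Only these exact letters were sought, so a window without a match may still hold a response element of other letters.
Isg15: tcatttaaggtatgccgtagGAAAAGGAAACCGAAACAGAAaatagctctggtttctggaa
Ifit1: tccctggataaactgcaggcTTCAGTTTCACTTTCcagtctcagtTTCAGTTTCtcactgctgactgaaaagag
Oas1a: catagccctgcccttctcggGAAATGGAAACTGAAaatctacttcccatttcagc
Stat2: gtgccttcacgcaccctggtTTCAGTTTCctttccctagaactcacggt
Irgm1: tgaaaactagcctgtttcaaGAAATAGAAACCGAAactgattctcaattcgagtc
B2m: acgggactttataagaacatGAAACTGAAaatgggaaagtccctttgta
Irf1: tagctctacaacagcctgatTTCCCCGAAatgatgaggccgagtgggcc
Irf8: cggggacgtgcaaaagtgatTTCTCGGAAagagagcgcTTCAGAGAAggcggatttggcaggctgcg
H2-K1: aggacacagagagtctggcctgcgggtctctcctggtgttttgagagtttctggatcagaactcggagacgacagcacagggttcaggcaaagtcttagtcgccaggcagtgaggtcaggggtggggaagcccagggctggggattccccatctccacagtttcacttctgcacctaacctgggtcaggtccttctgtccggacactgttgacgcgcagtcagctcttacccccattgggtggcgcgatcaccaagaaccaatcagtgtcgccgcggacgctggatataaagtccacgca

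Isg15 and Ifit1 each held 3 overlapping or close ISRE cores, and Oas1a and Irgm1 2 each. Isg15, Oas1a and Irgm1 carry them on the strand of the gene, and Ifit1 and Stat2 on the opposite strand. Irf8 held 2 GAS matches and Irf1 held 1.

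The second comparison was between the genotypes, and it asked which of these genes differed between emerin-null and wildtype cells across the 6 stages. Within each stage the log2 ratio of emerin-null over wildtype FPKM (with 0.1 added to both) was taken, and limma tested its mean over the 6 stages, with Benjamini-Hochberg adjustment over all 10499 genes. A gene passed at an adjusted p below 0.05. The stages stand in for repeats, so the p-value measures the spread of the ratio between stages of 1 pair of lines and not between lines or plates. The test found 13 of the 43 genes lower in emerin-null cells (30.2%, against 10.2% of all genes). Higher were 3 of the 43 (6.98%, against 8.92% of all genes), a share near that of all genes. With a fold change over 1.5 as well, 4 were lower (2.15% of all genes) and 1 was higher (3.37% of all genes). The 4 were Iigp1, Mx2, Samhd1 and Isg20, and the higher gene was H2-Eb1. Each of the 4 has a limit given below, in its entries or in its low level. At an unadjusted p below 0.05 stood 22 of the 43, against 35.7% of all genes.

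**Figure D2:**
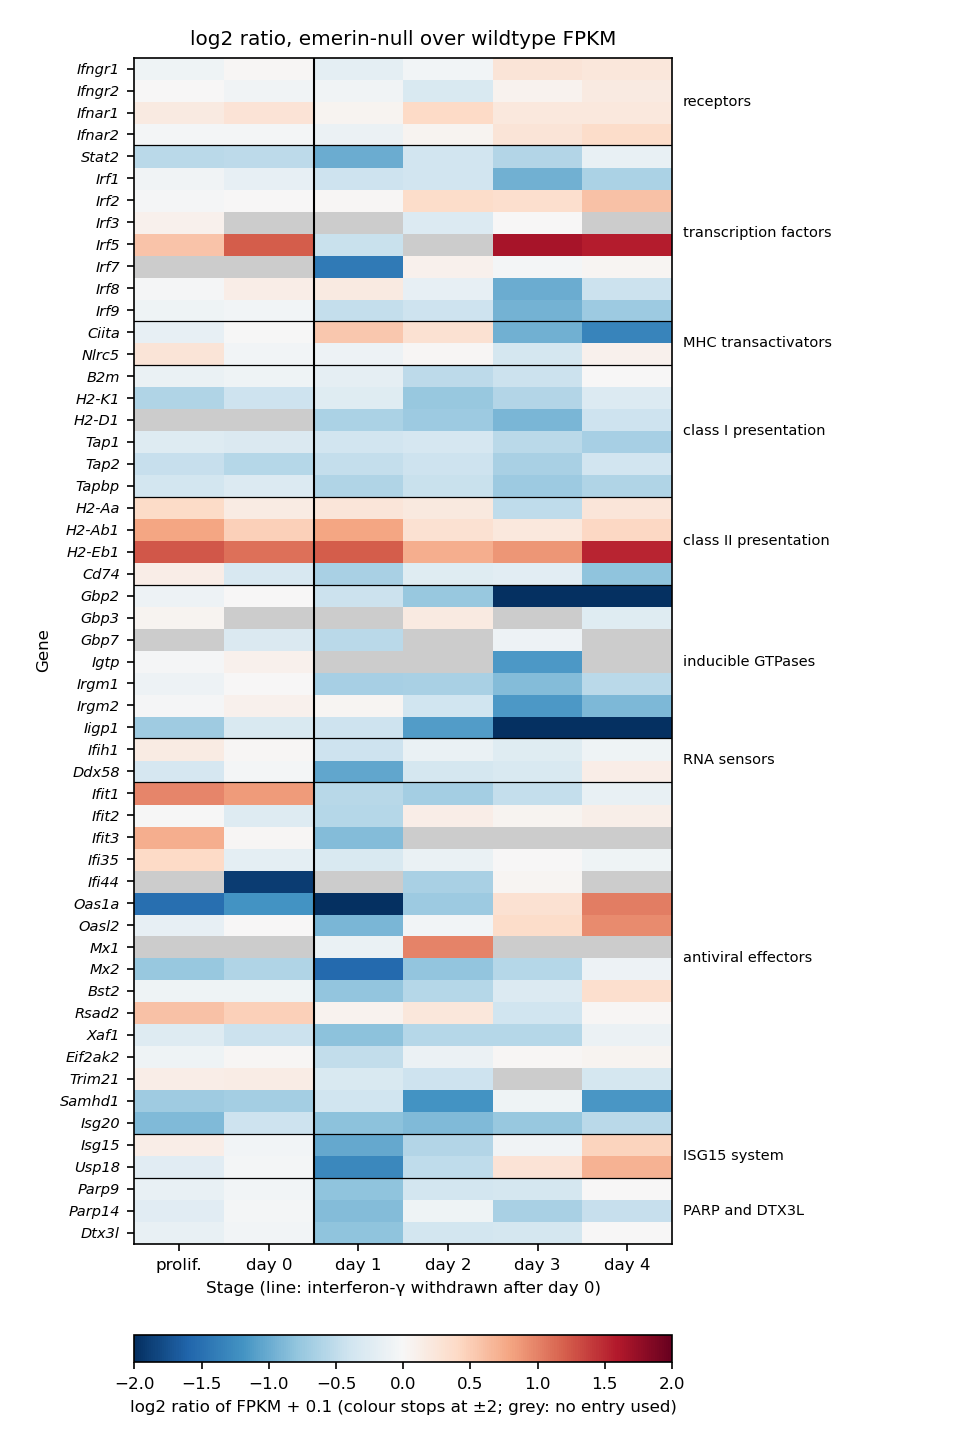
Rows are the 54 genes by role and columns the 6 stages. Colour gives the log2 ratio of emerin-null over wildtype FPKM (blue lower, red higher in emerin-null cells, stopping at 2 either way) and grey marks a stage with no usable entry. Class I genes are blue at nearly every stage, H2-Eb1 is red at all 6, and 8 of the 12 tested antiviral effectors have their lowest ratio at day 1.

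Of the 5 tested genes of class I presentation 4 passed, all lower in emerin-null cells. Tap2, a subunit of the peptide transporter of the endoplasmic reticulum, had 72.7, 52.4, 24.5, 19.9, 23.0 and 25.2 FPKM in emerin-null cells, against 101, 78.1, 34.2, 26.6, 36.2 and 32.9 FPKM in wildtype cells. It was lower in emerin-null cells at 6 of 6 stages, with a mean log2 ratio of -0.50 ± 0.05 (SE, 6 stages; limma adjusted p = 0.000862). H2-K1 (chr17:33996017-34000347 in GRCm38) had 1742, 1138, 265, 637, 613 and 542 FPKM in emerin-null cells, against 2648, 1512, 312, 1077, 918 and 655 FPKM in wildtype cells. It too was lower at 6 of 6 stages in the entries taken, by a mean log2 ratio of -0.48 ± 0.09 (SE; limma adjusted p = 0.0118). All entries of H2-K1 together had ratios from -0.76 to 0.56 while proliferating and from -0.27 to 0.11 at day 4. The direction at these stages thus depends on the entry. The entry taken also covered H2-K2 at the proliferating stage, day 0 and day 3, and reads of class I genes can be split among near-identical copies.

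Tap1, the other transporter subunit, passed at -0.41 ± 0.06 (SE; limma adjusted p = 0.00697), and Tapbp, which holds class I molecules at the transporter, at -0.50 ± 0.06 (SE; limma adjusted p = 0.00365). The entry of Tap1 was shared with the immunoproteasome genes Psmb8 and Psmb9, and that of Tapbp with Rgl2 and Zbtb22, at all 6 stages. At day 4 the direction of Tap1 depended on the entry. The log2 ratio was -0.66 in the entry taken and 0.22 in the other. B2m was shared with Patl2 and did not pass, with a mean log2 ratio of -0.22 ± 0.09 (SE; limma adjusted p = 0.130). Its emerin-null level was below wildtype at 5 stages, with a log2 ratio of 0.00 at day 4. H2-D1, another class I heavy chain, could not be tested, and at days 1 to 4 its entry, shared with H2-L, had 541, 267, 304 and 363 FPKM in emerin-null cells, against 841, 444, 575 and 485 FPKM in wildtype cells. Nlrc5, the transactivator of class I genes, did not pass (mean log2 ratio -0.02 ± 0.08, SE; limma adjusted p = 0.868).

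Class II genes were split. H2-Eb1, the β chain of the I-E molecule (chr17:34305867-34316674), had 56.9, 67.4, 29.7, 9.58, 5.17 and 4.95 FPKM in emerin-null cells, against 23.9, 31.2, 12.8, 5.78, 2.77 and 1.65 FPKM in wildtype cells. Its emerin-null level exceeded the wildtype level at 6 of 6 stages, with a mean log2 ratio of 1.11 ± 0.10 (SE; limma adjusted p = 0.000928). H2-Ab1, the β chain of I-A, had 13.2, 36.7, 8.82, 4.25, 6.82 and 7.97 FPKM in emerin-null cells, against 7.57, 26.4, 5.05, 3.43, 5.87 and 5.94 FPKM in wildtype cells. It was also higher at 6 of 6 stages, by 0.50 ± 0.09 (SE; limma adjusted p = 0.0117). The α chain H2-Aa was at 0.12 ± 0.11 (SE; limma adjusted p = 0.473) and Cd74 at -0.35 ± 0.12 (SE; limma adjusted p = 0.0868), and neither passed. H2-Aa was higher in emerin-null cells at 5 stages and Cd74 at 1. At day 4 the direction of H2-Aa depended on the entry, with a log2 ratio of 0.24 in the entry taken and -0.47 in its other entry. Ciita did not pass (mean log2 ratio -0.27 ± 0.26, SE; limma adjusted p = 0.486), and its emerin-null level was above wildtype at days 1 and 2 and below it at days 3 and 4.

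Class II genes are expressed mainly by dendritic cells, macrophages and B cells, so markers of these cells were examined. Of 12 macrophage and dendritic markers, 8 were listed at some stage, and Ptprc, Adgre1, Itgax and Tyrobp were not. Their summed level, without entries shared with other genes, was 1.43 to 4.56 FPKM in emerin-null samples and 1.53 to 5.24 FPKM in wildtype samples. With the shared entries it was 21.8 to 293 FPKM in emerin-null samples and 15.0 to 312 FPKM in wildtype samples. Of these, Cd68 passed the test as higher in emerin-null cells (mean log2 ratio 0.88 ± 0.19, SE; limma adjusted p = 0.0223), in an entry that also held Eif4a1 at all 6 stages. Of 7 lymphocyte markers 0 reached 1 FPKM, nor did any of 6 endothelial markers. Of 6 fibroblast markers 2 reached it, Col1a1 and Dcn, with a sum over the list of 6.10 to 59.0 FPKM in emerin-null samples and 10.3 to 46.9 FPKM in wildtype samples. Col1a1, a collagen chain, had 4.97 FPKM in emerin-null cells and 22.7 FPKM in wildtype cells at day 0, and 51.4 FPKM in emerin-null cells and 7.61 FPKM in wildtype cells at day 4. All 8 myogenic markers reached 1 FPKM, with a sum of 1229 to 3049 FPKM in emerin-null samples and 1441 to 3036 FPKM in wildtype samples. Among them Pax7 and Myf5, transcription factors of muscle progenitors, passed as higher in emerin-null cells, with mean log2 ratios of 2.34 ± 0.29 and 1.19 ± 0.15 (SE; limma adjusted p = 0.00308 and 0.00309). The part of other cells, or of the progenitor state, in the levels of the interferon genes was not tested.

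Transcription factors of the pathway were lower in emerin-null cells where they passed. Stat2, a component of the type I interferon complex, had 16.1, 16.9, 14.7, 15.4, 13.2 and 14.6 FPKM in emerin-null cells, against 23.4, 24.3, 29.4, 20.1, 19.7 and 16.2 FPKM in wildtype cells. It was lower at 6 of 6 stages, by a mean log2 ratio of -0.53 ± 0.10 (SE; limma adjusted p = 0.0140), and the gap was widest at day 1. Irf1 was lower at 6 of 6 stages, by -0.44 ± 0.12 (SE; limma adjusted p = 0.0399), with ratios of -0.08 and -0.17 in interferon-γ and -0.96 and -0.63 at days 3 and 4. Irf9, the DNA-binding partner of STAT2, passed at -0.45 ± 0.12 (SE; limma adjusted p = 0.0463), in an entry shared with Rnf31 at all stages and with Psme2 at 5. At day 4 the entry taken for Irf9 had a log2 ratio of -0.73 and its other entry 0.12, so the direction there depends on the entry. Irf2, which competes with IRF1, and Irf8 did not pass, at 0.22 ± 0.09 and -0.22 ± 0.16 (SE).

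The other transcription factors were measured at some stages only. Irf7, which amplifies type I interferon responses, stood alone at its locus at day 1 only, with 3.00 FPKM in emerin-null cells and 8.14 FPKM in wildtype cells. At days 2 to 4 its entry also held Phrf1, and the ratios were 0.09, -0.03 and 0.05. Irf5 had an entry at 5 stages and was higher in emerin-null cells at 4 of them, all below 5 FPKM. Irf3 shared its entry with Bcl2l12, Rras and Scaf1 at its 3 stages, with ratios of 0.08, -0.28 and 0.01.

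Of the 4 receptors 1 passed. Ifnar1, a chain of the type I receptor, was higher, with 9.66, 20.4, 10.4, 8.48, 7.41 and 7.25 FPKM in emerin-null cells, against 8.56, 16.9, 10.0, 6.42, 6.37 and 6.26 FPKM in wildtype cells. Its mean log2 ratio was 0.22 ± 0.05 (SE; limma adjusted p = 0.0257), higher at 6 of 6 stages. Ifngr1, Ifngr2 and Ifnar2 had mean log2 ratios of 0.03 ± 0.07, -0.03 ± 0.06 and 0.08 ± 0.07 (SE) and did not pass (limma adjusted p from 0.474 to 0.795).

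Interferon-inducible GTPases, which attack the vacuoles of intracellular pathogens, had 2 of 4 tested genes that passed, both lower in emerin-null cells. Irgm1, a regulator of this family, had 37.5, 32.9, 7.66, 6.21, 9.25 and 45.7 FPKM in emerin-null cells, against 40.4, 32.8, 12.2, 9.82, 17.0 and 66.5 FPKM in wildtype cells. Its mean log2 ratio was -0.47 ± 0.12 (SE; limma adjusted p = 0.0395), lower at 5 of 6 stages. The Irgm1 entry at day 4 (chr11:48865425-48873839) was shorter than those of the other stages, so that level cannot be compared with them. Iigp1 had 4086, 28874, 10.4, 45.1, 225 and 52.8 FPKM in emerin-null cells, against 6709.7, 35647, 13.9, 98.0, 1398 and 222 FPKM in wildtype cells, and passed at -1.21 ± 0.34 (SE; limma adjusted p = 0.0491). Up to 14 usable entries carried its name at 1 stage, of very different level, so the level of Iigp1 cannot be compared between stages. The entry taken also held F830016B08Rik, Gm4841 and Gm4951 while proliferating and at day 0. While proliferating its log2 ratio was -0.72, and the other entries had ratios from 0.06 to 0.34. At day 0 it was -0.30, with entries from -0.76 to 0.27. The direction of Iigp1 at these stages thus depends on the entry taken.

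Gbp2, a guanylate-binding protein, had 257, 323, 38.3, 11.3, 0.0106 and 0.0105 FPKM in emerin-null cells, against 276, 323, 51.5, 19.2, 14.0 and 12.6 FPKM in wildtype cells. Its first 4 entries were shared with Gbp1, and at days 3 and 4 it stood alone at near zero in emerin-null cells only. Its mean log2 ratio of -2.52 ± 1.19 (SE) did not pass (limma adjusted p = 0.177). Irgm2 did not pass either (-0.39 ± 0.19, SE; limma adjusted p = 0.180), with ratios of -0.02 and 0.08 in interferon-γ and -1.15 and -0.90 at days 3 and 4, and it shared its entry with Igtp at the proliferating stage, day 0 and day 3. Gbp3 and Gbp7 were measured at 3 stages each, with ratios between -0.54 and 0.18.

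Antiviral effectors were less uniform, and 4 of 12 passed, all lower in emerin-null cells. Isg20, an exonuclease of single-stranded RNA, had 5.42, 0.509, 13.0, 12.4, 11.8 and 11.1 FPKM in emerin-null cells, against 10.1, 0.714, 23.0, 22.9, 20.0 and 16.2 FPKM in wildtype cells. Its mean log2 ratio was -0.71 ± 0.07 (SE; limma adjusted p = 0.00140), lower at 6 of 6 stages, and its entry was shared with Aen at 5 of them. Xaf1, a pro-apoptotic interferon-induced gene, had 31.5, 36.6, 19.1, 30.8, 42.9 and 49.0 FPKM in emerin-null cells, against 37.6, 49.5, 33.7, 45.8, 63.5 and 53.3 FPKM in wildtype cells, a mean log2 ratio of -0.46 ± 0.09 (SE; limma adjusted p = 0.0154). Both were lower in emerin-null cells at every stage.

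Mx2, a dynamin-like GTPase, was below 5 FPKM in all samples, with 0.637, 0.376, 1.19, 2.26, 1.94 and 2.14 FPKM in emerin-null cells, against 1.15, 0.625, 3.68, 4.00, 2.93 and 2.30 FPKM in wildtype cells (mean log2 ratio -0.73 ± 0.17, SE; limma adjusted p = 0.0286). While proliferating its entry covered only chr16:97544463-97544658, against chr16:97535918-97556671 at day 0, so that level cannot be compared with the others. The log2 ratio there was -0.76 in the entry taken and -2.48 and -0.33 in the other entries. Samhd1, which depletes nucleotides needed for viral DNA synthesis, passed at -0.70 ± 0.15 (SE, limma adjusted p = 0.0226). The entries taken for it had 22.1 to 694 FPKM in emerin-null samples and 29.0 to 1113 FPKM in wildtype samples. At all stages but day 1 it had another usable entry of lower level. At day 2 the entry taken had a log2 ratio of -1.19 and the other -0.16, at day 4 -1.16 and -0.28, and at day 3 -0.08 and -0.45. The size of its mean ratio thus depends on the entries taken, and its levels cannot be compared between stages. Oas1a, an oligoadenylate synthetase, had 1.60, 2.56, 1.79, 4.06, 3.18 and 3.37 FPKM in emerin-null cells, against 4.74, 5.99, 7.79, 6.75, 2.56 and 1.61 FPKM in wildtype cells. It was lower in emerin-null cells at the first 4 stages and higher at days 3 and 4, and did not pass (mean log2 ratio -0.69 ± 0.40, SE; limma adjusted p = 0.262); its entry was shared with Oas1g at 3 stages. The other 7 tested effectors did not pass, with mean log2 ratios from -0.24 to 0.16. Of the untested ones, Ifit3 had ratios of 0.73 while proliferating, 0.02 at day 0 and -0.86 at day 1, Trim21 lay between -0.42 and 0.15 at 5 stages, Ifi44 between -1.90 and 0.04 at 3, and Mx1 was below 0.5 FPKM at its 2 stages.

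Of the 16 genes that passed, 8 did so under every one of the 13 or 14 alternative processings that could be fitted to them, namely Stat2, H2-K1, Tap1, Tap2, Tapbp, H2-Ab1, H2-Eb1 and Isg20. The others lost the call when single stages were left out, and 4 of them in other settings too. With single stages left out, the limma adjusted p reached 0.0973 for Irf1 and 0.112 for Irgm1 (both without day 1, 2, 3 or 4), 0.110 for Irf9 (without the same days), 0.0751 for Ifnar1 (without any 1 stage other than day 1), 0.0829 for Mx2 (without the proliferating stage, day 0, day 2 or day 3), 0.0547 for Xaf1 (without day 2 or day 3), 0.0635 for Samhd1 (without the proliferating stage, day 0 or day 2) and 0.114 for Iigp1 (without any 1 stage). Ifnar1 also lost it with sums (0.0505) and medians (0.205) of entries, and Irgm1 with medians (0.0612). Irf9 lost it with a minimum of 5 FPKM, centring or no trend (0.0506 to 0.0555), and Iigp1 with that minimum, centring, medians or genes alone at their locus (0.0507 to 0.0962). The count of genes lower was 6 without day 2 and 7 without day 3, and it was 7 among genes alone at their locus.

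The third comparison was of the genotypes stage by stage, which shows the time course behind the means. With 1 sample a group there is no test, and a gene was counted when its levels differed over 1.5-fold with at least 1 FPKM in a genotype. In emerin-null cells 19 of 48 genes were lower at day 1 (39.6%, against 5.85% of all genes) and 2 were higher (4.17%, against 5.42%). Before that, 6 of 49 were lower while proliferating (12.2%, against 5.91% of all genes) and 5 were higher (10.2%, against 5.4%), and at day 0 3 of 47 were lower (6.38%, against 7.44%) and 3 higher (6.38%, against 4.63%).

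After day 1 the counts of lower genes were 12 of 46 at day 2 (26.1%, against 4.5% of all genes), 14 of 48 at day 3 (29.2%, against 4.97%) and 10 of 47 at day 4 (21.3%, against 5.78%). Higher were 1 at day 2 (2.17%, against 7.24%), 2 at day 3 (4.17%, against 8.77%) and 5 at day 4 (10.6%, against 12.8%). The 19 genes of day 1 came from 18 loci, since Parp9 and Dtx3l share an entry, and 14 of them were alone at their locus. The 14 genes of day 3 came from 13 loci, since Igtp and Irgm2 share an entry there, and 8 of them were alone. At a 2-fold threshold 6 genes were lower at day 1, 2 genes at day 2, and 4 genes on each of days 3 and 4. Those of day 3 count Igtp and Irgm2 as separate genes.

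**Figure D3:**
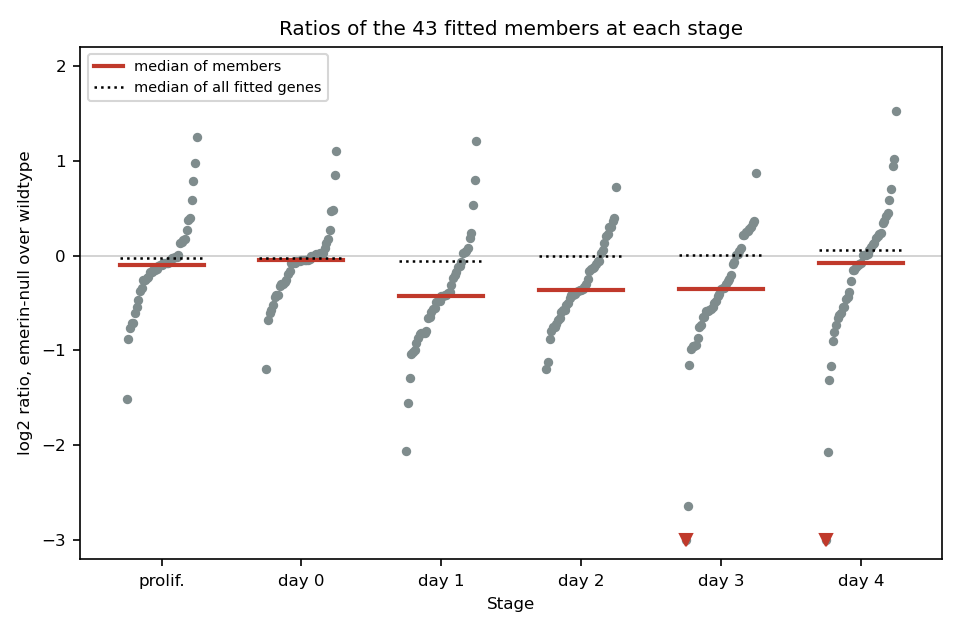
Grey points are the log2 ratios, emerin-null over wildtype, of the 43 tested genes at each stage, ranked within the stage, with their median in red and the median of all 10499 tested genes dotted. The median of the 43 is -0.05 at day 0 and -0.43 at day 1, and triangles mark Gbp2, below the axis at days 3 and 4.

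The median log2 ratio of the 43 genes was -0.09 while proliferating and -0.05 at day 0, and on days 1 to 4 it was -0.43, -0.36, -0.35 and -0.08. Over all tested genes the same medians were -0.02, -0.02, -0.06, -0.01, 0.01 and 0.06. Day 1 was the stage of the lowest ratio for 19 of the 43 genes (44.2%), against 21.9% of all tested genes. Day 3 was the lowest for 13 (30.2%, against 11.3%), and day 4 was the highest for 18 (against 37.6% of all tested genes).

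The 19 genes with their lowest ratio at day 1 were Ifngr1, Ifnar1, Ifnar2, Stat2, both RNA sensors, Ifit2, Ifi35, Oas1a, Oasl2, Mx2, Bst2, Xaf1, Eif2ak2, Isg15, Usp18, Parp9, Parp14 and Dtx3l. By role these were 3 of 4 receptors, 1 of 5 transcription factors, both RNA sensors, 8 of 12 antiviral effectors, both genes of the ISG15 system and all 3 of PARP9, PARP14 and DTX3L, and 0 of 15 genes in the remaining roles. Usp18, which removes ISG15 from proteins and restrains the type I receptor, had 2.68, 2.88, 3.20, 7.71, 6.22 and 7.62 FPKM in emerin-null cells, against 3.17, 2.96, 7.96, 11.0, 5.10 and 4.65 FPKM in wildtype cells. In wildtype cells its level stood well above day 0 at day 1, and in emerin-null cells only from day 2 on. Isg15 followed the same course, at a log2 ratio of -1.02 at day 1 and 0.45 at day 4. Oasl2, an oligoadenylate synthetase-like protein, had 20.1, 22.7, 9.25, 10.2, 7.83 and 6.62 FPKM in emerin-null cells, against 22.6, 22.5, 17.5, 10.6, 6.07 and 3.39 FPKM in wildtype cells. For Bst2 the ratio was -0.79 at day 1 and 0.34 at day 4. All 4 genes were thus below wildtype at day 1 and above it at day 4.

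Both RNA sensors were nearer to wildtype at day 4, with ratios of 0.14 for Ddx58 and -0.08 for Ifih1. Ddx58, which encodes RIG-I, had 3.82, 4.73, 4.42, 6.45, 5.58 and 6.09 FPKM in emerin-null cells, against 4.87, 4.88, 9.16, 8.27, 6.91 and 5.53 FPKM in wildtype cells. Ifih1, which encodes MDA5, had ratios from -0.42 at day 1 to 0.17 while proliferating. Neither passed over the 6 stages (-0.32 ± 0.14 and -0.11 ± 0.08, SE; limma adjusted p = 0.153 and 0.363). Parp14, an ADP-ribosyltransferase, had 23.4, 19.3, 4.36, 3.24, 3.11 and 2.66 FPKM in emerin-null cells, against 27.4, 19.8, 8.06, 3.45, 4.91 and 3.69 FPKM in wildtype cells. The shared entry of Parp9 and Dtx3l, partners in ADP-ribosylation and ubiquitination, had 20.3, 34.4, 9.74, 7.86, 8.01 and 8.46 FPKM in emerin-null cells, against 22.5, 35.9, 17.2, 10.1, 10.2 and 8.43 FPKM in wildtype cells. Their mean log2 ratios of -0.39 ± 0.12 and -0.29 ± 0.11 (SE) did not pass (limma adjusted p = 0.0618 and 0.104).

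The other genes had their lowest ratios later, except Irf2 and Isg20, which had them while proliferating. For Irf1, Irf8, Irf9, Nlrc5, Tap2, Tapbp, H2-Aa, H2-Ab1, Irgm1, Irgm2, Gbp2, Iigp1 and Rsad2 the lowest ratio was at day 3, for Ciita, Tap1 and Cd74 it was at day 4, and for Ifngr2, H2-K1, B2m, H2-Eb1, Ifit1 and Samhd1 it was at day 2. The order of the ratios is a description of the entries taken, without a test.

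**Figure D4:**
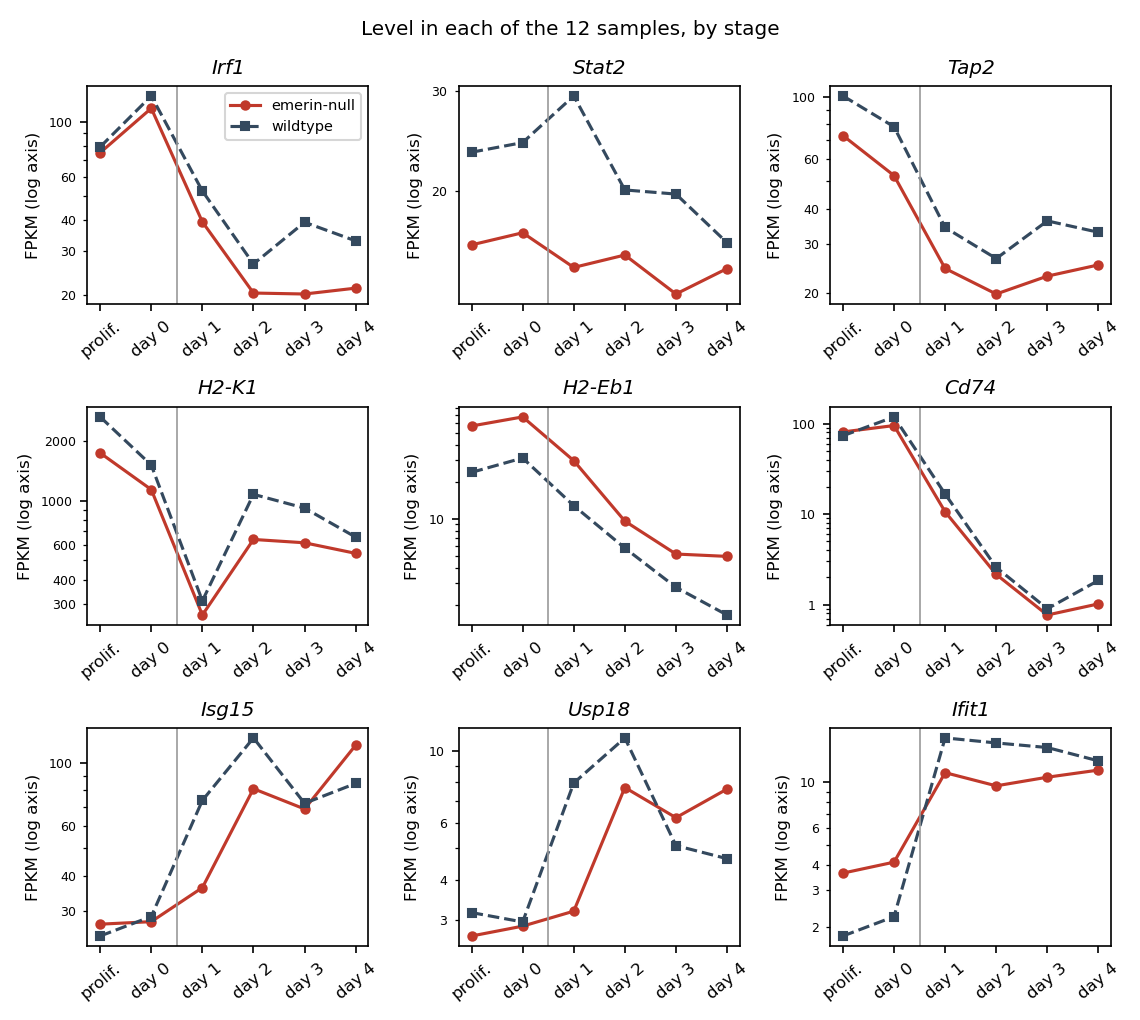
Panels give FPKM on a log axis at the 6 stages for 9 genes, 1 value per sample, emerin-null in red and wildtype in grey, with a line between the last stage with interferon-γ and day 1. Tap2, Stat2 and H2-K1 are lower in emerin-null cells at all 6 stages and H2-Eb1 higher, Isg15 and Usp18 are below wildtype at day 1 and above it at day 4, and Ifit1 crosses between day 0 and day 1.

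The last comparison was whether the genotype ratio itself differed between the stages with and without interferon-γ, tested with limma on the same 6 ratios as days 1 to 4 minus the proliferating and day 0 stages. Of the 43 genes 1 passed, with a lower ratio after withdrawal (2.33%, against 0.114% of all genes), and 0 passed with a higher ratio (0.171% of all genes). At an unadjusted p below 0.05 stood 6 of the 43, against 13.2% of all genes. The gene that passed was Ifit1, which binds viral RNA that lacks cap methylation, with 3.64, 4.11, 11.1, 9.62, 10.6 and 11.5 FPKM in emerin-null cells, against 1.81, 2.24, 16.4, 15.5, 14.7 and 12.7 FPKM in wildtype cells. Its entry was shared at all 6 stages with a gene of RIKEN name, 2010002M12Rik, so the reads of the pair cannot be told apart. Its emerin-null level was above wildtype at both stages with interferon-γ and below it at all 4 later stages, a difference in log2 ratio of -1.37 ± 0.16 (SE; limma adjusted p = 0.0440). The call was lost in 5 of 8 other processing settings (limma adjusted p from 0.0521 to 0.0878) and without the proliferating stage, day 0, day 2 or day 3 (0.126 to 0.205). Differences that did not pass were -0.63 ± 0.11 (SE; limma adjusted p = 0.144) for Irgm1 and -0.64 ± 0.33 (SE; limma adjusted p = 0.439) for Irgm2. For Gbp2 and Iigp1 the differences had wide errors (-3.70 ± 2.24 and -1.05 ± 0.64, SE).

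Other genes of the pathway, taken from 4 lists, gave the following. Of the genes of JAK-STAT signaling and its feedback, Tyk2, a kinase of the type I receptor, passed as lower in emerin-null cells, at -0.34 ± 0.05 (SE; limma adjusted p = 0.00602). Jak1, Jak2 and Socs1 did not pass, at -0.05 ± 0.06, 0.01 ± 0.05 and 0.02 ± 0.09 (SE). Of 12 genes of the immunoproteasome and class I loading 11 were tested, with 3 lower and 1 higher (Pdia3), and the 3 lower ones (Psmb8, Psmb9 and Psme2) share entries with Tap1 or, at 5 stages, with Irf9, so they are not separate measurements there. Over all genes 10.2% were lower and 8.92% higher. Of 43 other interferon-induced genes 20 were tested, and 3 passed, all lower (10.2% of all genes): Casp1, Tor3a and Nmi. Casp1, the protease of the inflammasome, had 1.57, 2.33, 0.727, 0.530, 0.527 and 0.937 FPKM in emerin-null cells, against 9.22, 7.53, 3.36, 2.48, 4.87 and 6.93 FPKM in wildtype cells. Its mean log2 ratio of -2.33 ± 0.18 (SE; limma adjusted p = 0.000441) was the largest of the 3, lower at 6 of 6 stages. Neither of the 2 tested genes in the list of 8 interferons and related cytokines passed.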

How the data were processed

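RNA sequencing was made from total RNA of emerin-null and wildtype H2K progenitors, 1 sample of each genotype at each of 6 stages. Per the submitters' processing notes the authors checked reads with FastQC, mapped them to mm10 with TopHat and compared the genotypes at each stage with Cuffdiff, of versions the sources used here do not name. The deposited tables hold, per entry of a stage-specific assembly, an FPKM value of the authors for each genotype, pooled over plates, so spread between plates and depth are unknown. Further columns hold the authors' own fold changes, test statistics, p-values and q-values, and a second sheet per table holds a subset of its entries; neither was used.

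Entries with status OK were used, and per gene and stage the one with the largest FPKM sum. Log2 ratios of FPKM + 0.1 were fitted with limma 3.58.1 (R 4.3.3, trend) and tested on simulated data. Genes needed an OK entry at all 6 stages and a mean of at least 1 FPKM. A gene counted as alone at its locus when no other named gene shared the coordinates, predicted genes, RIKEN clone names and microRNAs aside. Gene positions are from GENCODE M21 (GRCm38, the build of mm10) and promoters from RefSeq (GRCm38.p6). The members, lists and tests were chosen with earlier results of these data known. Genes named with all 12 values were a fixed set (both interferon-γ receptors, Stat2, Irf1, B2m, H2-K1, Ciita and Cd74) plus, per role, up to 3 with the largest mean ratio and 2 with the largest difference, and up to 3 passing genes of the other lists. Values shown in full beyond these (Bst2, Xaf1, Oasl2 and H2-D1) were chosen after they were seen. Some results of the other lists are not reported here. Alternatives were another pseudocount, other FPKM minimums, sums or medians of entries, lone loci, centring, no trend, other scalings and leaving out each stage.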

Additional observations from a re-analysis of the deposited data

Results flagged for a closer look

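Ifit1 stood out because its genotype ratio differed between the stages without and with interferon-γ in a test of the difference itself, by -1.37 on the log2 scale (limma adjusted p = 0.0440). Its emerin-null level was above wildtype at 2 of 2 stages with interferon-γ and below it at 4 of 4 stages without. Its entry was shared with 2010002M12Rik at all 6 stages. Interferon-γ, serum, carbon dioxide and differentiation changed together between these stages, and their parts in the difference cannot be told apart.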

How the results depend on the processing

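The FPKM values came without depth, so differences in low genes cannot be set against counting error, and with 1 value per genotype and stage there is no spread within a stage. No paired analysis was possible because the labels give no replicate numbers and each group has 1 sample, so there were no replicates to block; the ratios pair the genotypes by stage. The median ratio over all entries of a gene was chosen as an alternative after seeing the data. The cause was not tested for any change given here.

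The 13 genes that passed as lower over the 6 stages became 7 among genes alone at their locus and 6 to 11 when 1 stage was left out. The 1 gene that passed for the difference between stages without and with interferon-γ, Ifit1, became 0 genes with a pseudocount of 1, sums of entries, genes alone at their locus, no trend and medians over entries, and 0 to 1 when 1 stage was left out.

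Mean log2 ratios changed sign only for genes that had not passed. Setting the median of all genes to 0 gave 0.00138 for Ifit1, sums of entries gave -0.0684 for Ifnar2, and medians over entries gave -0.17 for Ifnar2, 0.0129 for B2m, 0.0504 for Ifit1 and -0.0369 for Oasl2. Leaving out 1 stage gave -0.0156 to 0.0747 for Ifngr1, -0.0724 to 0.0240 for Ifngr2, -0.0774 to 0.0452 for Nlrc5, -0.20 to 0.13 for Ifit1, -0.13 to 0.00959 for Ifit2, -0.15 to 0.22 for Oasl2 and -0.36 to 0.0412 for Usp18.

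Differences in log2 ratio between the stages without and with interferon-γ changed sign as well, again for genes that had not passed. Setting the median of all genes to 0 gave -0.0143 for Ifngr2 and -0.0182 for Stat2, medians over entries gave 0.00539 for B2m, -0.11 for H2-K1, 0.0341 for Mx2 and 0.0321 for Samhd1, a pseudocount of 1 gave 0.00153 for Samhd1, and sums of entries gave -0.0244 for H2-K1, 0.26 for Mx2 and 0.00959 for Samhd1. Leaving out 1 stage gave -0.0607 to 0.10 for Ifngr2, -0.0631 to 0.0531 for Ifnar1, -0.12 to 0.16 for Stat2, -0.57 to 0.0471 for Ciita, -0.0514 to 0.14 for H2-K1, -0.0156 to 0.0940 for Tap2, -0.24 to 0.0258 for H2-Eb1, -0.37 to 0.0206 for Ddx58, -0.0541 to 0.23 for Ifit2, -0.53 to 0.0618 for Ifi35, -0.13 to 0.49 for Oasl2, -0.29 to 0.20 for Mx2, -0.17 to 0.0102 for Eif2ak2, -0.22 to 0.15 for Samhd1, -0.33 to 0.14 for Isg20 and -0.37 to 0.30 for Usp18.

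A 2-fold threshold left 1 gene higher and 1 lower while proliferating. On day 1 it left 1 higher and 6 lower, on day 2 0 higher and 2 lower, on day 3 1 higher and 4 lower, and on day 4 2 higher and 4 lower. The 4 lower on day 3 count Igtp and Irgm2, which share an entry, as separate genes. With at least 5 FPKM required, 2 genes were higher while proliferating, 1 on day 0, 1 on day 3 and 2 on day 4. A pseudocount of 1 gave 3 higher while proliferating, no filter gave 2 higher on day 2, sums of entries gave 5 lower on day 0 and 0 higher on day 2, and genes alone at their locus gave 8 lower on day 3. Of the changes after day 0, 3 genes were higher in emerin-null cells with a pseudocount of 1 and 3 from day 0 to day 1 alone. Among genes alone at their locus 13 were lower in emerin-null cells and 12 in wildtype cells.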
